A study of Homo sapiens with 2 samples.

Results

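The genes described here encode the proteins that signal and repair DNA damage. They were taken from a list of 49 genes, matched by symbol to array probe sets that carry a single gene symbol, and 43 of the 49 were measured, out of 18417 named genes in all. RAD51D and ATRIP have probe sets that are shared with another symbol, and BRCA2, FANCA, FANCD2 and RBBP8 were not matched to a named probe set, so these 6 genes are not analysed here. Each of the 43 measured genes had 1 probe set. The samples were cultures of A549, a widely used cell line from a human lung adenocarcinoma, which either received an empty vector or overexpressed miR-130b, with 1 array per group. In both samples the RNA was collected by immunoprecipitation of Argonaute2 (Ago2), the core of the silencing complex in which a microRNA is bound to its target mRNAs. Beyond the line and the transfection, the labels do not state the vector, the time after transfection or whether the cells were a clone. Their extraction text describes excised tissue, although both samples are a cell line.

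Double-strand breaks are repaired by homologous recombination, which copies the intact sister chromatid and is used mainly in S and G2 phase, or by end joining, which ligates the ends at any stage of the cycle. The Fanconi proteins unhook crosslinks between DNA strands and pass them on to recombination, and the mismatch repair proteins correct errors of replication. The kinases ATM and ATR detect breaks and single-stranded DNA and halt the cycle through the checkpoint kinases CHEK2 and CHEK1. Many genes of recombination and crosslink repair are transcribed most in proliferating cells, whereas several end-joining genes are expressed throughout the cycle.

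The overexpressed microRNA is transcribed from MIR130B on chromosome 22, and its mature arms are shown because they identify the treatment. RefSeq (GRCh38.p14, plus strand) gives the 3p arm at chr22:21653354-21653375 and the 5p arm at chr22:21653316-21653336. Capitals mark the seed, bases 2 to 8, through which a microRNA pairs with its mRNAs.
hsa-miR-130b-3p: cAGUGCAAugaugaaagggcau
hsa-miR-130b-5p: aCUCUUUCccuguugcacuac
The arms have different seeds, and the labels do not say which arm was meant. The MIR130B probe set read 6.66 (log2) on the empty-vector array and 12.64 on the miR-130b array, the direction that the labels state. Pairing of either seed with the repair mRNAs was not examined, because transcript sequences were not used here.

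All values are log2 array values, and each difference is the miR-130b value minus the empty-vector value. With 1 array per group there is no replicate error and no test, so every difference describes these 2 arrays. As a scale, the differences of several probe sets of 1 gene varied with a pooled SD of 0.16 (356 genes), which covers probe disagreement only. Array medians were 7.77 in both groups. The lowest value of a measured repair gene on either array was 8.22, above 7.45, the 97.5th percentile of 341 olfactory receptor genes, which a lung line is not expected to express. A filter at the median level of all named genes (8.64) was passed by 41 of the 43 repair genes, and RAD51AP1 and CHEK2 lay below it. Of 11 measured markers of lung adenocarcinoma epithelium, 10 passed the same filter. EPCAM was below it (7.00 and 6.80), and CDH1 differed by -1.12 between the arrays. Of 15 measured leukocyte, endothelial and fibroblast markers, 3 passed it: CD68 (11.14 and 9.96), CD14 (8.89 and 9.53) and COL1A1 (8.74 and 9.05).

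Most repair and checkpoint mRNAs were higher in the Ago2 precipitate with miR-130b, and the largest differences were those of recombination and crosslink-repair genes. BARD1, BRIP1, EXO1 and FANCB were at least 2-fold higher, POLQ, DNA2, HELLS, BLM, RAD54L and XRCC2 were between 1.68-fold and 1.95-fold higher, and the kinases ATM and PRKDC were within 0.18 of the empty-vector value. Of the 43 genes 34 were higher (79.1%) and 9 lower, compared with 58.6% higher among all named genes and 51.5% among those at or above the filter. At least 1.5-fold higher were 14 of 43 genes (32.6%), against 3.65% of all named genes and 5.04% of those at or above the filter. None of the 43 was at least 1.5-fold lower, where the same backgrounds were 4.65% and 5.87%. At the 2-fold threshold the count was 4 of 43, with backgrounds of 1.06% and 1.32%. The median difference of the 43 genes was 0.31, compared with 0.053 for all named genes and 0.010 for those at or above the filter. A difference beyond 2 of the pooled SDs was found in 21 genes on the higher side and in 1, FANCF, on the lower side. These shares were 14.2% and 15.4% among the genes at or above the filter. The 43 genes were chosen with earlier results of these data known, so the shares set against background are descriptions. Input RNA was not analysed here, so the amount of an mRNA in the cell and its share bound to Ago2 cannot be told apart. A larger share of cells that express a gene and more of its RNA per cell cannot be told apart either.

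**Figure D1:**
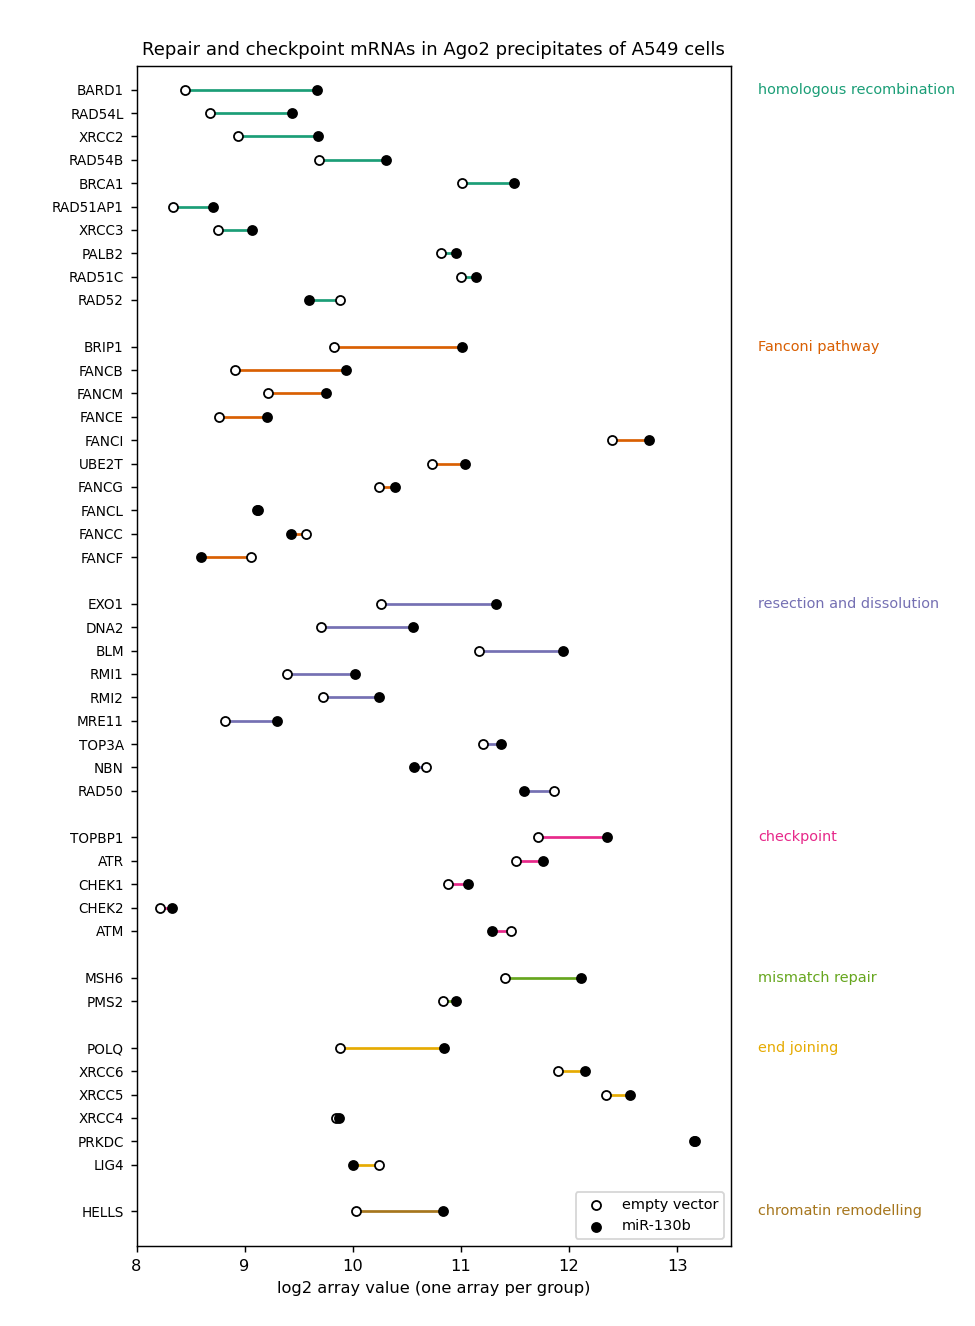
Log2 array value of each of the 43 measured genes with the empty vector (open circles) and with miR-130b (filled circles), 1 array per group, ordered within each class by the difference. The filled circle lies to the right for 34 genes, and the longest lines are those of BARD1, BRIP1, EXO1 and FANCB.

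Homologous recombination genes were higher in 9 of 10 cases, with a median difference of 0.42. Among genes at or above the 75th percentile of level, the 3 genes left had a median of 0.14, the lowest of the classes so filtered. BARD1, the partner that stabilises BRCA1 and forms a ubiquitin ligase with it, read 8.45 on the empty-vector array and 9.67 on the other. The difference of 1.22 (2.32-fold) was the largest of all 43 genes and higher than 99.3% of the genes at or above the filter. The filter uses the mean of both arrays, and BARD1 passed it through its miR-130b value. Its empty-vector value lay below the filter level of 8.64. BRCA1 itself stood at 11.01 and 11.49, a difference of 0.48 (1.39-fold). The partners of this heterodimer thus differed in the same direction by unequal amounts, 0.74 apart. PALB2, a partner of BRCA1 in recombination, was nearly equal on the arrays, at 10.82 and 10.95.

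Genes of strand invasion came next. RAD54L, a motor that drives strand invasion, stood at 8.68 and 9.44, a difference of 0.76. Its relative RAD54B stood at 9.69 and 10.31, a difference of 0.62. Both RAD54 genes were therefore more than 1.5-fold higher with miR-130b. RAD51AP1, a cofactor of strand invasion, stood at 8.34 and 8.71, a difference of 0.37. XRCC2, XRCC3 and RAD51C, which also act in homologous recombination, were uneven. XRCC2 stood at 8.93 and 9.68 (0.75), XRCC3 at 8.75 and 9.07 (0.31) and RAD51C at 11.00 and 11.14 (0.14). RAD52, which anneals single strands and acts apart from the BRCA1 route, was the 1 lower gene of this class, at 9.88 and 9.60 (-0.28).

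Genes that resect broken ends and dissolve joined chromosomes had the highest median of the classes with more than 1 gene, 0.52, with 7 of 9 higher. This rank did not hold among genes at or above the 75th percentile of level, where the 5 genes left had a median of 0.16, below that of 4 other classes. EXO1, a nuclease of long-range resection and mismatch repair, stood at 10.26 and 11.32, a difference of 1.06 (2.09-fold). DNA2, the nuclease of the parallel resection route, stood at 9.71 and 10.56, a difference of 0.85 (1.80-fold). Both long-range nucleases were thus among the 6 largest differences in the list. The MRE11-RAD50-NBN complex, which starts resection and activates ATM, was uneven. MRE11 was higher by 0.48 (8.82 and 9.30), NBN differed by -0.10 (10.67 and 10.57) and RAD50 by -0.28 (11.86 and 11.59). The NBN difference is smaller than the SD between probe sets.

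The dissolvasome untangles double Holliday junctions, and its 4 genes were all higher. BLM, its helicase, stood at 11.17 and 11.95, a difference of 0.78 (1.71-fold). RMI1 stood at 9.39 and 10.02 (0.63) and RMI2 at 9.72 and 10.24 (0.52), both encoding stabilising subunits. TOP3A, its topoisomerase, was at 11.21 and 11.37, and its difference of 0.16 was close to the SD between probe sets.

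Fanconi pathway genes were split, with 7 of 10 higher and a median of 0.33. BRIP1, the FANCJ helicase that binds BRCA1, stood at 9.83 and 11.01, a difference of 1.19 (2.28-fold). The core complex is the ubiquitin ligase that marks the FANCI-FANCD2 clamp, and its 6 measured genes ranged from -0.46 to 1.02 with 3 higher and 3 lower. FANCB was higher by 1.02 (8.91 and 9.93), FANCE by 0.45 (8.76 and 9.21) and FANCG by 0.14 (10.25 and 10.39). FANCL, the catalytic subunit, was equal to within 0.01 (9.12 and 9.11), FANCC differed by -0.14 (9.57 and 9.43) and FANCF by -0.46 (9.06 and 8.59). FANCF had the largest decrease of all 43 genes, and its value with miR-130b lay just under the filter level of 8.64. Within this single complex the subunits were therefore up to 1.49 apart.

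Genes that act with the core complex were higher. FANCM, the translocase that brings the core complex to a crosslink, stood at 9.22 and 9.75 (0.53). UBE2T, the ubiquitin-conjugating enzyme used by FANCL, stood at 10.73 and 11.04 (0.31). FANCI, the clamp subunit that was measured, stood at 12.39 and 12.74 (0.34). These 3 differences exceed the SD between probe sets and stay under 1.5-fold.

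Checkpoint genes differed less, with a median of 0.19 and 4 of 5 higher. TOPBP1, the activator of ATR, was the 1 checkpoint gene at least 1.5-fold higher, at 11.71 and 12.35 (0.63). ATR stood at 11.51 and 11.76 (0.25), and its effector CHEK1 at 10.88 and 11.07 (0.19). On the break-sensing arm, ATM stood at 11.47 and 11.29 (-0.18) and its effector CHEK2 at 8.22 and 8.33 (0.11). Across these kinases the differences ran from -0.18 to 0.25, under 2 of the pooled SDs between probe sets.

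The mismatch repair genes were MSH6 and PMS2. MSH6, which recognises single mispaired bases, stood at 11.41 and 12.11, a difference of 0.70 (1.62-fold). PMS2, the endonuclease subunit that nicks the faulty strand, stood at 10.83 and 10.95 (0.12). The difference of PMS2 is smaller than the SD between probe sets.

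End-joining genes had the lowest class median, 0.12, and POLQ stood apart from the rest. The 4 of these 6 genes at or above the 75th percentile of level had a median of 0.23, which was not the lowest of the classes so filtered. POLQ, the polymerase of theta-mediated end joining, which uses short homologies at resected ends, stood at 9.88 and 10.85, a difference of 0.97 (1.95-fold). The 5 genes of classical end joining lay between -0.24 and 0.25, with a median of 0.025. XRCC6 and XRCC5, the subunits of the Ku ring that caps broken ends, differed by 0.25 (11.90 and 12.15) and 0.21 (12.35 and 12.56). PRKDC, the kinase recruited by Ku, stood at 13.16 on both arrays. XRCC4 stood at 9.85 and 9.87, and LIG4, the ligase it holds, at 10.25 and 10.01 (-0.24). HELLS, a chromatin remodeller of the SNF2 family that was listed with these genes, stood at 10.03 and 10.84, a difference of 0.80 (1.75-fold).

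**Figure D2:**
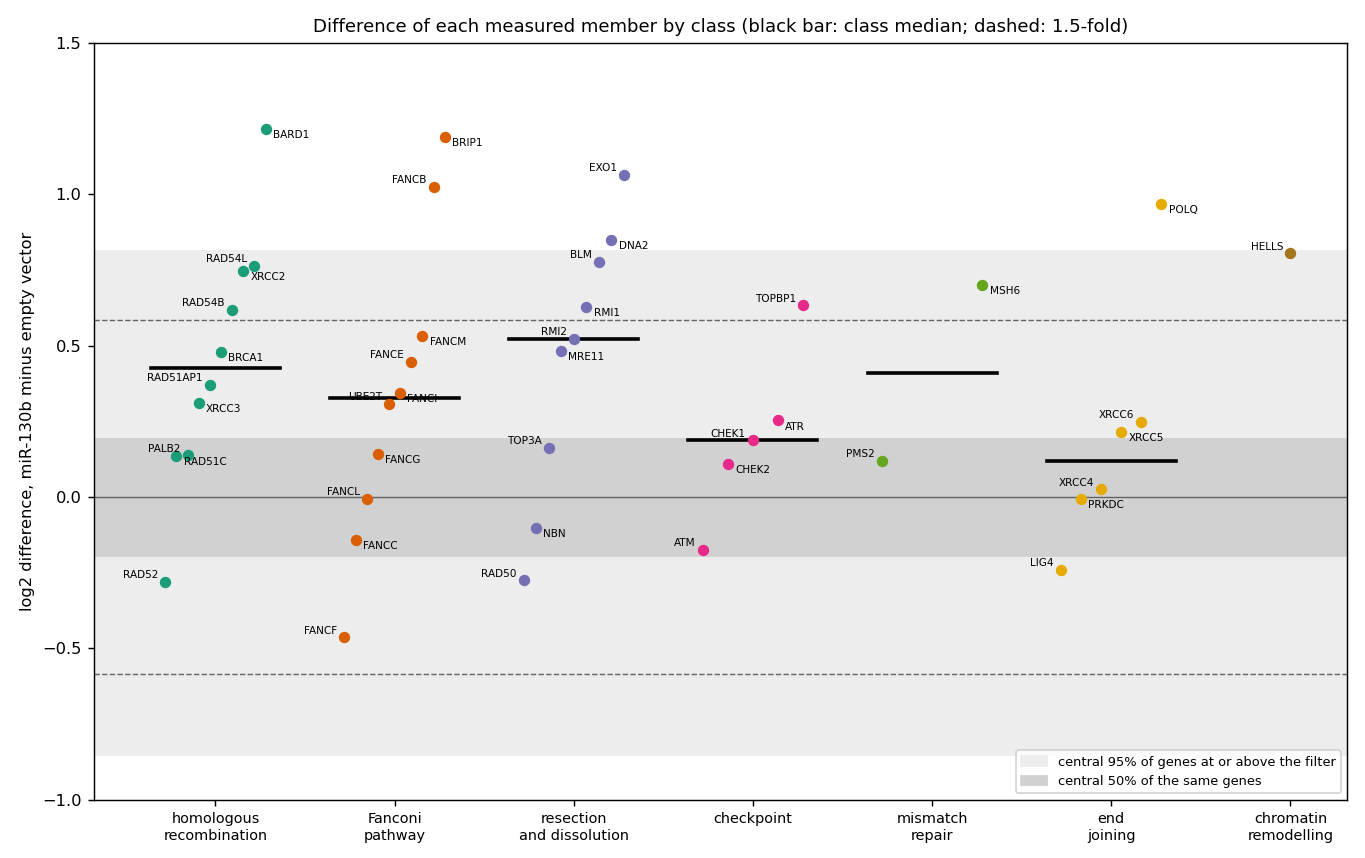
Log2 difference (miR-130b minus empty vector) of each measured gene by class, with the class median as a black bar, the 1.5-fold thresholds as dashed lines, and grey bands for the central 50% and 95% of the 9209 named genes at or above the filter. BARD1, BRIP1, FANCB, EXO1, POLQ and DNA2 lie above the 95% band, and no gene lies below it.

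The threshold of 1.5-fold (0.585 on the log2 scale) separated close neighbours. RAD54B (0.62), RMI1 (0.63) and TOPBP1 (0.63) lay just above it, and FANCM (0.53), RMI2 (0.52) and MRE11 (0.48) just below. Partners of 1 complex agreed closely for Ku, 0.035 apart, and lay further apart for the other complexes. BRCA1 and BARD1 were 0.74 apart, the MRE11-RAD50-NBN genes 0.76 and the dissolvasome genes 0.61.

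**Figure D3:**
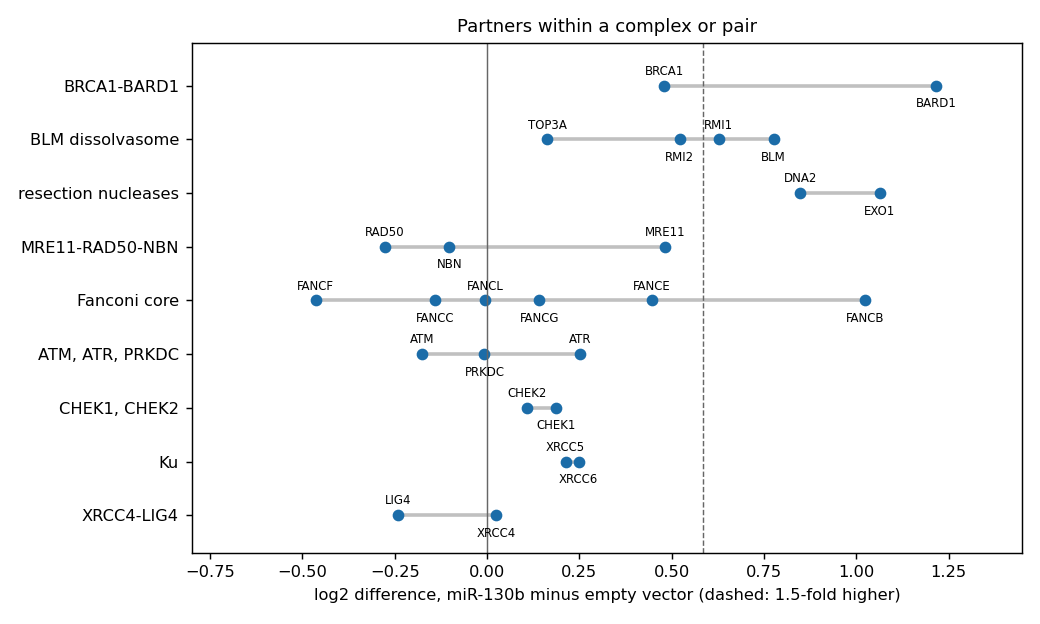
Log2 difference (miR-130b minus empty vector) of the measured genes of 9 complexes or functional pairs, 1 point per gene, joined by a grey line from the lowest to the highest. The Ku genes nearly coincide at 0.21 and 0.25, whereas the Fanconi core genes extend from -0.46 (FANCF) to 1.02 (FANCB).

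Other repair genes, from lists drawn up beside the members, also differed between pathways. Without those that are also S phase or mitosis markers, 68 of 110 were higher (61.8%), with a median of 0.084. At least 1.5-fold higher were 9 (8.18%), and at least 1.5-fold lower were 3. Among all named genes 58.6% were higher and 3.65% at least 1.5-fold higher, and among those at or above the filter 51.5% and 5.04%. Of 24 further recombination and crosslink-repair genes 18 were higher and 6 lower, with a median of 0.28. FIGNL1, an ATPase of recombination, was higher by 0.98, and MCM9, a helicase of recombination, by 0.71. SWI5, a cofactor of recombination, differed by -0.62 and RAD51B by -0.49. At least 1.5-fold higher were 2 of the 24 and at least 1.5-fold lower was 1.

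Of 28 further checkpoint and damage-signalling genes 22 were higher, with a median of 0.24, and 6 were at least 1.5-fold higher. CLSPN, which encodes Claspin, the mediator between ATR and CHEK1, stood at 8.60 and 10.02, a difference of 1.42. CDC25A, the phosphatase that the checkpoint destroys, was higher by 0.91. RAD9A, part of the clamp that recruits TOPBP1, differed by -0.64 and RAD17, which loads that clamp, by -0.53. The other two clamp subunits, RAD1 and HUS1, differed by 0.33 and 0.085, so the clamp genes went in both directions.

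Nucleotide excision repair, which removes bulky lesions such as ultraviolet damage, was lower in 12 of 16 genes, with a median of -0.14. Among all named genes 7480 of 18417 were lower, and among those at or above the filter 4457 of 9209. UVSSA differed by -0.52 and GTF2H3, a subunit of the TFIIH factor, by -0.48, while DDB2, a sensor of ultraviolet lesions, differed by 0.47 and ERCC3, a TFIIH helicase, by 0.21. None of these 16 genes was 1.5-fold apart in either direction. The 12 further end-joining genes had a median of -0.099 with 8 lower. POLL, a gap-filling polymerase, differed by -0.74 and DCLRE1C, the Artemis nuclease, by -0.42, whereas PARP1 differed by 0.15 and NHEJ1 by 0.084.

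Base excision repair, which replaces damaged single bases, was higher in 13 of 17 genes, with a median of 0.16. Its 4 genes at least 1.5-fold higher include LIG1 (0.79) and FEN1 (0.77), the ligase and flap nuclease that also finish lagging-strand replication. At its other end POLB, the polymerase of short-patch repair, differed by -0.54 and NTHL1, a glycosylase, by -0.15. The 13 translesion synthesis genes had a median of 0.15 with 9 higher and none 1.5-fold apart. PRIMPOL, a primase-polymerase, was at 0.38, HLTF at 0.30, POLI at -0.25 and SMARCAL1 at -0.20. Of 4 further mismatch-repair genes 2 were higher. PCNA, the replication clamp, was at 0.92, MSH3 at 0.093, MLH3 at -0.075 and PMS1 at -0.54.

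Markers of proliferating cells were higher too, though some of them are also counted in the lists of other repair genes. These are UNG, FEN1 and PCNA of the S phase list and TTK of the mitosis list. Of 28 S phase markers 27 were higher, with a median of 0.78, and 22 (78.6%) were at least 1.5-fold higher. E2F8, a repressor of the E2F family, was higher by 1.60 and MCM4, a subunit of the replicative helicase, by 1.12. CDC6 was the 1 lower marker (-0.33). All 22 markers of G2 and mitosis were higher, with a median of 0.66. CENPE, a kinetochore motor, was higher by 1.22 and CENPF by 1.08. Both marker medians lie above those of every repair class with more than 1 gene. The markers' values ran from 8.07 to 12.46 for S phase and from 7.97 to 12.79 for mitosis with the empty vector, and from 9.14 to 12.87 and from 8.35 to 13.22 with miR-130b. Their part in the differences of the repair genes was not tested.

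**Figure D4:**
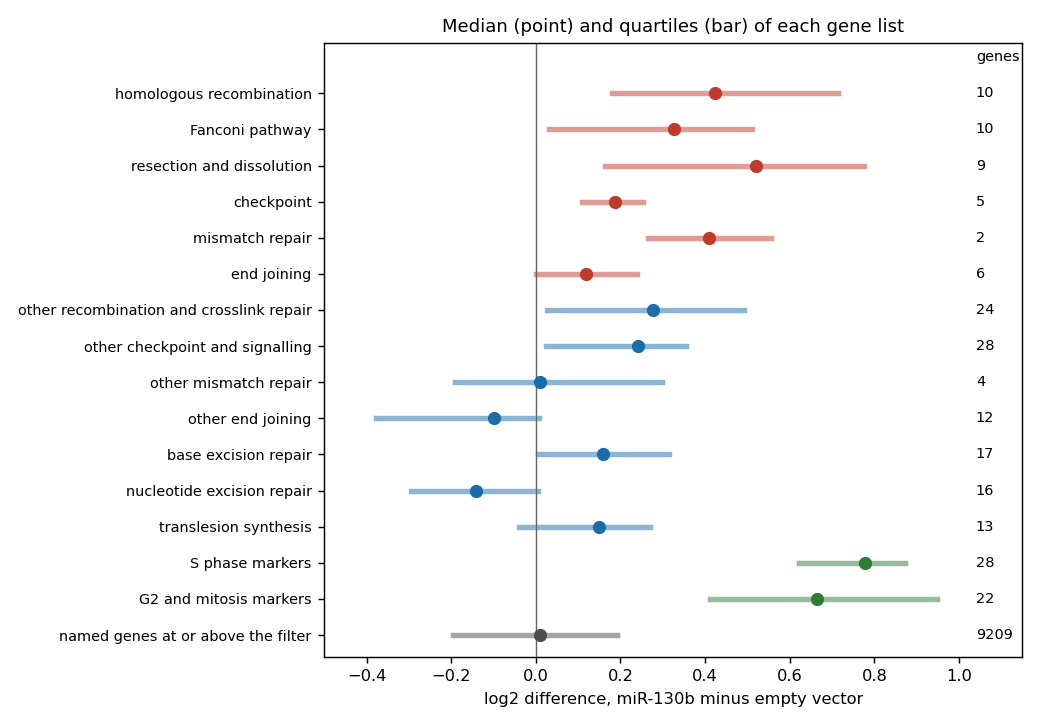
Median (point) and quartiles (bar) of the log2 difference (miR-130b minus empty vector) for the 6 repair classes with more than 1 gene (red), 7 lists of other repair genes (blue), S phase and mitosis markers (green) and the named genes at or above the filter (grey), with the number of measured genes at the right. Medians run from -0.14 for nucleotide excision repair to 0.78 for S phase markers.

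Many S phase genes are driven by the E2F transcription factors. RefSeq windows (GRCh38.p14) from 250 bases before to 50 bases after a transcript start were matched by symbol for 36 of the 43 genes, some with several windows. They were searched on both strands for 4 words of the E2F type, TTCCCGC and also TTGGCGC or TTCGCGC or TTGCCGC, which can overlap one another. These words were chosen after promoters of these genes had been inspected, so their share and the split below are descriptions. At least 1 word was present in 29 of 54 windows of these genes (53.7%), compared with 13.0% of all 35116 windows and 19.7% of the 11075 windows of genes at or above the filter. Counted by gene, 23 of 36 repair genes (63.9%) had a word, against 15.3% of all genes and 26.0% of the genes at or above the filter. The S phase markers had one in 19 of 22 genes (86.4%), and the G2 and mitosis markers in 4 of 17 (23.5%). The median differences of these marker lists were 0.78 and 0.66, and the part of the words in them was not tested. The windows of the repair genes had a median GC content of 62.8%, between the 58.7% of all genes and the 65.3% of genes at or above the filter. A match is a string of letters and not evidence of binding.

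The stretches below, from 100 bases before to 30 bases after the start, are shown for 6 genes with a word among those at least 1.5-fold higher, for FANCB, which was 2-fold higher with no word, for FANCL, which was nearly equal on the arrays with a word, and for XRCC4, nearly equal with none. They were picked after the values were seen. Capitals mark the words, read on either strand. The positions on GRCh38.p14 are chr2:214809654-214809783, minus strand for BARD1, chr17:61863499-61863628, minus strand for BRIP1, chr1:241848104-241848233, plus strand for EXO1 and chr3:121545959-121546088, minus strand for POLQ. They are chr15:90717246-90717375, plus strand for BLM, chr10:94545688-94545817, plus strand for HELLS, chrX:14873040-14873169, minus strand for FANCB, chr2:58241296-58241425, minus strand for FANCL and chr5:83077447-83077576, plus strand for XRCC4.
BARD1: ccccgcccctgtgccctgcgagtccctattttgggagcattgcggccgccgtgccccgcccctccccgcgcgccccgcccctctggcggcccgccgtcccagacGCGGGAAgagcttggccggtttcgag
BRIP1: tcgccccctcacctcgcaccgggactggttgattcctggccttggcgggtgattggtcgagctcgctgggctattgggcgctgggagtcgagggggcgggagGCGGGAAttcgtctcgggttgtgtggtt
EXO1: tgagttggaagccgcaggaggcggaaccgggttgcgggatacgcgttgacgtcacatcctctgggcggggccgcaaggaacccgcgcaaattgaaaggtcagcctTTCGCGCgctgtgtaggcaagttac
POLQ: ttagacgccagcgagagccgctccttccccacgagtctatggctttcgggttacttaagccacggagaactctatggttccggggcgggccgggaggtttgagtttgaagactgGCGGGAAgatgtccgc
BLM: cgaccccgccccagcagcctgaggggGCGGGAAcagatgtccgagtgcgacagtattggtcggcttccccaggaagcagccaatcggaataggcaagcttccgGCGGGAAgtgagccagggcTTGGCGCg
HELLS: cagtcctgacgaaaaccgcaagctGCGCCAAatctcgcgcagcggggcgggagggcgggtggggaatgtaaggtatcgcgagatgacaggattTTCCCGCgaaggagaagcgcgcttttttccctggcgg
FANCB: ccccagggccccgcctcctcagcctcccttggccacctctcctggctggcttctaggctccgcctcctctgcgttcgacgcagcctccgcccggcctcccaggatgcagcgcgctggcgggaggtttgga
FANCL: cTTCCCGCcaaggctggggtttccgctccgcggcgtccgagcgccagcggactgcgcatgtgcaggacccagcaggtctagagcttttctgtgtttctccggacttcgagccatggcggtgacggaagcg
XRCC4: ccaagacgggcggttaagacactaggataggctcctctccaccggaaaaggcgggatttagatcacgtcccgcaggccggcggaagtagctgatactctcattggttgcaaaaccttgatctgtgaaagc
In BARD1, BRIP1, EXO1 and POLQ, the genes with the largest differences of those with a word, it begins within 15 bases after the start. EXO1 has 2 windows, and the stretch shown is from the only one with a word. BLM carries 3 words in the stretch shown, 1 of them before the start, and HELLS carries 2, both before it.

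The repair genes with an E2F-type word, a set of words chosen after the data were seen, had a higher median difference than those without. The 23 genes with a word had a median of 0.48 and ranged from -0.46 (FANCF) to 1.22 (BARD1), and 11 of them (47.8%) were at least 1.5-fold higher. They include FANCF, the lowest of the measured members, RAD52 (-0.28) and FANCC (-0.14). The 13 genes without a word had a median of 0.14 and ranged from -0.28 (RAD50) to 1.02 (FANCB), and FANCB was the 1 at least 1.5-fold higher (7.69%). The ranges overlap over most of their length. Among genes at or above the filter the same split gave 6.12% of 1977 genes with a word and 4.17% of 5640 without, with medians of 0.043 and -0.0016. Of the 14 repair genes at least 1.5-fold higher, DNA2 and RAD54B had no promoter window here.

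**Figure D5:**
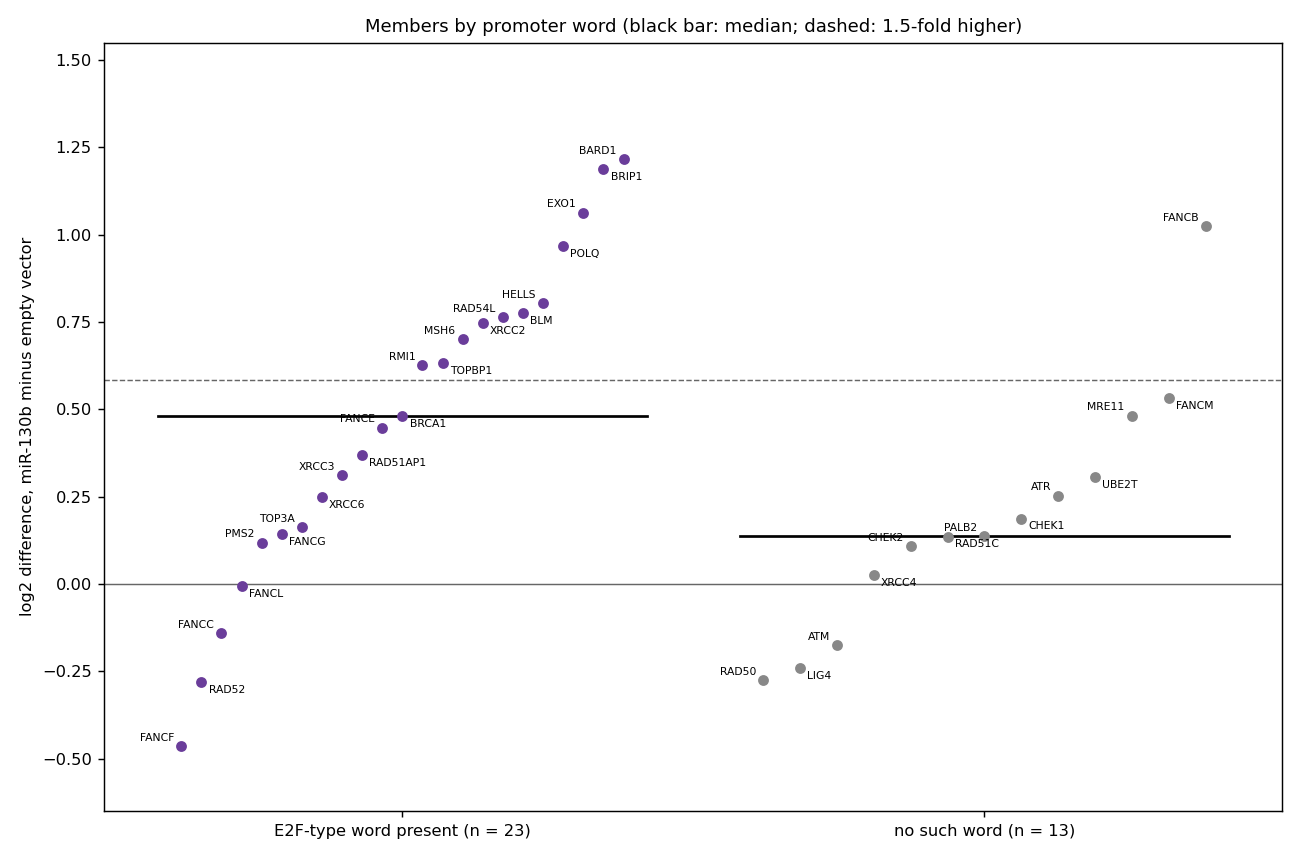
Log2 difference (miR-130b minus empty vector) of the 36 repair genes with a promoter window, split by whether an E2F-type word was found, with the median of each group as a black bar and 1.5-fold higher as a dashed line. The 23 genes with a word have a median of 0.48 and the 13 without have a median of 0.14, and FANCB stands alone above the dashed line among the latter.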

How the data were processed

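RNA precipitated with Ago2 was measured on 1 Affymetrix whole-transcript array per group. The deposited values are log2 values per probe set (33297 per array); the scale was read from their range (1.95 to 14.17). The authors' software, background correction and normalization were not given in the sources used here. Both arrays have near-equal distributions, so an overall change in the amount of RNA would not show in the differences. A supplied platform annotation gave 19460 probe sets a single symbol and 1754 several, and 12083 were unnamed. Symbols were updated through Entrez identifiers, and probe sets of a gene were averaged. With 1 array per group no test was computed, and the number of arrays limits the precision. Genes were counted at 1.5-fold and 2-fold. Counts over the members use all 43 measured genes without a filter.

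The members and gene lists were chosen with earlier results of these data known. All members may be named. Of each list of other repair genes the 2 largest differences each way are named, of the proliferation lists the 2 largest, and CDC6, RAD1, HUS1, EPCAM, CDH1, CD68, CD14 and COL1A1 were added after their values were seen. UNG and TTK are named because each is on 2 lists. The E2F-type words were chosen after promoters had been inspected. The alternatives were filters at the median and 75th percentile, centring, quantile normalization, cyclic loess (limma 3.58.1, R 4.3.3), the brightest probe set, other fold thresholds and means. The counting was tested on simulated data. Python 3.11.15, numpy 2.4.6 and pandas 2.3.3 were used.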

Additional observations from a re-analysis of the deposited data

How the results depend on the processing

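The count of 14 repair genes at least 1.5-fold higher was also 14 after quantile normalization and cyclic loess, 11 after centring on the median difference of all named genes, 16 at a threshold of 0.5 on the log2 scale and 4 at a threshold of 2-fold. With the filter at the 75th percentile, which left 22 repair genes, 7 were at least 1.5-fold higher, 2 at least 2-fold higher and 18 higher. The same filter gave a median of 0.14 for the 3 homologous recombination genes left and 0.16 for the 5 resection and dissolution genes left. It gave 0.23 for the 4 end-joining genes, 0.22 for the 4 checkpoint genes, 0.34 for the 3 Fanconi genes and 0.41 for both mismatch repair genes. The order of the classes thus changed: the homologous recombination class and not the end-joining class was the lowest, and the resection class was no longer the highest. With means the end-joining and checkpoint classes were both at 0.20. The median of all repair genes ran from 0.25 to 0.35 over the alternatives, and their mean was 0.37. XRCC4 changed sign after centring (-0.03), PRKDC after quantile normalization (0.02) and cyclic loess (0.01), and FANCL after quantile normalization (0.04). With TTCCCGC as the only promoter word, chosen after seeing the data, the 18 genes with it had a median of 0.55 and the 18 without 0.16. All repair genes had 1 probe set, so the brightest probe set gave the same values. No paired analysis was possible because each group has 1 array. Without replicates or detection calls, differences near the SD between probe sets are not resolved.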

Other observations

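Beside the E2F-type words, 2 other promoter words of cell-cycle genes were counted, TTTGAA (the core of the cell-cycle homology region) and CCAAT (the box bound by NF-Y), on both strands. TTTGAA was found in 5 of 36 repair genes (13.9%), ATM, BRIP1, FANCC, POLQ and UBE2T, against 13.6% of the genes at or above the filter, 18.2% of all genes and 76.5% of the 17 mitosis markers with a window. CCAAT was found in 21 of the 36 (58.3%), against 43.3% of the genes at or above the filter, 39.7% of all genes and 82.4% of the mitosis markers. Among genes at or above the filter, 9.07% of those with TTTGAA and 3.98% of those without were at least 1.5-fold higher, a wider gap than for the E2F-type words. The 5 repair genes with TTTGAA had a median difference of 0.31 and the 31 without it 0.31. The 21 with CCAAT had a median of 0.31 and the 15 without it 0.25. BRIP1 and POLQ carried TTTGAA together with an E2F-type word and were 2.28-fold and 1.95-fold higher, whereas FANCC carried both and differed by -0.14.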
